A study of Arabidopsis thaliana with 18 samples.

Results

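XCT (XAP5 CIRCADIAN TIMEKEEPER, AT2G21150), SKIP (AT1G77180) and STIPL1 (SPLICEOSOMAL TIMEKEEPER LOCUS1, AT1G17070) are 3 Arabidopsis thaliana genes for splicing factors with a role in the circadian clock. They were picked by their gene identifiers among 33602 genes in the deposited gene counts, together with every intron and alternative splicing bin that the deposited tables list under the same genes. That gave 12 of 120717 introns, 11 in XCT, 1 in SKIP and none in STIPL1, and 2 of 7973 splicing bins, both in SKIP. All 3 genes passed the filter on low counts, as did 3 of the 12 introns and both bins. The RNA came from whole plants of the gemin2 mutant and of wild type Col (WT), aged 9 days and kept in constant white light at 22 °C, after cold stratification of the seed in all groups. The headers of the deposited tables name the allele gemin2-1, and the labels say no more of the mutation. One group of each genotype spent the last 1 h at 10 °C, another the last 24 h, and the third stayed at 22 °C, so that 6 groups of 3 poly(A) RNA libraries were sequenced. Nothing in the labels says that the libraries of a group came from separate plantings, so p-values measure the spread between these libraries, which may be technical.

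The plant clock is a set of transcription factors that repress and activate each other in a daily cycle, and many of their transcripts are alternatively spliced. XCT is a conserved nuclear protein whose loss shortens the period of the Arabidopsis clock. SKIP is a core protein of the active spliceosome, binds transcripts of clock genes, and its loss lengthens the period. STIPL1 is the homologue of the yeast and animal factors that help to take the spliceosome apart after splicing, and its loss also lengthens the period. GEMIN2, the gene mutated here, helps to assemble the Sm protein ring on spliceosomal small nuclear RNAs, a step upstream of all 3 proteins.

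The libraries held 15675913 to 53766089 gene counts. Levels are CPM, counts per 1000000 gene counts, scaled by TMM factors. GEMIN2 itself had 2.88 to 5.66 CPM over the 9 gemin2 libraries, against 10.5 to 21.4 CPM over the 9 WT libraries. In library C of gemin2 at 22 °C, 17.6% of the gene counts lay in chloroplast genes, against 0.232% to 3.17% in the other 17 libraries. Library A of gemin2 read higher than B and C for XCT and SKIP after 1 h and after 24 h of cold. Called results of the 3 genes, their introns and bins that use these libraries are given with and without them, as are the changes of XCT between the genotypes and with cold in gemin2, while STIPL2, the gene lists and the correlations were read from all libraries only. In whole plants, fewer cells of a type and less RNA per cell cannot be told apart. Changes are log2 ratios with standard errors (SE), and the p-values of edgeR's quasi-likelihood test were adjusted by the Benjamini-Hochberg method over all genes, introns or bins tested and called below 0.05.

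The XCT gene, on the plus strand of chromosome 2 (9065338 to 9068093, TAIR10), holds 11 introns of 83 to 460 bases. All 11 lay between coding exons and on exon bounds of the RefSeq annotation of TAIR10.1, and 10 had GT and AG ends. The following 3 introns are shown because they are the ones with enough reads to test. They are read 5′ to 3′ on the plus strand of TAIR10.1, with the bases at the splice sites in capitals.
XCT I005, chr2:9066791-9066885: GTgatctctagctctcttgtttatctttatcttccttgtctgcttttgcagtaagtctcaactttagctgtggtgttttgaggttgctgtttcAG
XCT I006, chr2:9066963-9067045: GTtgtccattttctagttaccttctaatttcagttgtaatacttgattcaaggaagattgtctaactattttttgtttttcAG
XCT I010, chr2:9067620-9067712: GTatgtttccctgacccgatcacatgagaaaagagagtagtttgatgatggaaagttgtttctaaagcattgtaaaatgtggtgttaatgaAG
The end of I010 differed in letters from those of the other 10 introns of the gene. In the 13 bases before its AG it held 5 pyrimidines (C or T), against 6 to 12 in the other 10 introns, and the base before the AG was A, against C or T in the other 10. Intron I002, with 6 pyrimidines, was close to it in that count and held only 6 reads in each genotype. Whether these letters bear on the reads of I010 was not tested. The length of I010, 93 bases, is a multiple of 3, and its reading frame is the one left by the exon before it. Read in that frame, the intron holds 31 codons, of which 4 are stop codons, the first at codon 9. Read on in the frame of the exons before them, I005 and I006 also held stop codons.

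Of the 3 introns and 2 bins tested in these genes, only intron I010 of XCT was called between the genotypes, and it was higher in gemin2 in each of the 3 conditions. I010 reached the mean of 10 counts over all 18 libraries only through gemin2, with 439 reads there against 24 in WT. Its entry into the test was therefore not independent of its being higher in gemin2. After 1 h at 10 °C, I010 reads came to 3.30%, 4.49% and 4.93% of the XCT gene count in the gemin2 libraries, against 0.203%, 0.474% and 0.120% in the WT libraries. After 24 h they came to 3.31%, 5.35% and 8.61% in gemin2, against 0.331%, 0.110% and 0.521% in WT. The libraries of the genotypes did not overlap, and every gemin2 library exceeded 3%. The log2 change relative to the gene was 3.88 ± 0.47 (SE) after 1 h (adjusted p = 4.76e-07) and 4.26 ± 0.47 after 24 h (adjusted p = 4.32e-08). At 22 °C the shares were 3.77%, 4.96% and 3.12% in gemin2, against 0, 0 and 0.154% in WT, where the counts of 0 allow up to 0.357% in library A and 0.522% in library B. In sums this was 109 reads in gemin2 and 1 read in WT, beside XCT gene counts of 2705 and 2065. The ratio of these shares was 83.2, with a 95% interval from exact binomial limits of 14.6 to 3316 that covers counting error only. The test at 22 °C called it as well (adjusted p = 3.08e-06), with a fitted change that rests on that 1 WT read. With each of the 18 libraries left out in turn, that fitted change ran from 5.43 to 8.50. The SE given for it below does not cover this uncertainty. Among all 9366 introns tested, 5.04% were called at 22 °C, 13.8% after 1 h and 17.0% after 24 h in either direction, and 4.06%, 12.1% and 15.3% were called higher. Without library C of gemin2 at 22 °C, or without library A of gemin2 after 1 h or 24 h, the fitted changes were 6.20 ± 0.80, 4.04 ± 0.49 and 4.54 ± 0.46, in place of 6.06 ± 0.77, 3.88 ± 0.47 and 4.26 ± 0.47. The authors' deposited table also lists I010 in all 3 comparisons, with log2 changes of 5.66, 3.06 and 3.55 and FDRs of 1.56e-10, 1.53e-10 and 2.02e-10.

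**Figure D1:**
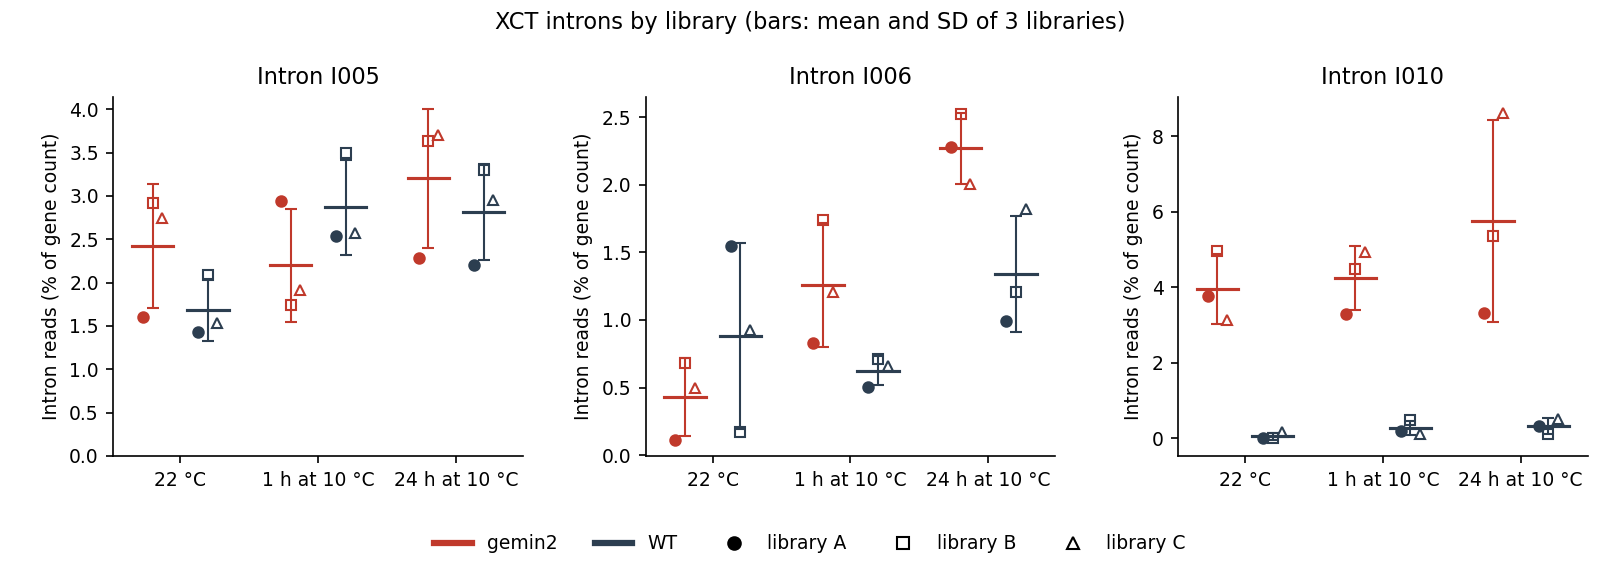
Reads in the tested XCT introns as percent of the gene count in each library, by condition, with gemin2 in red and WT in dark blue; horizontal bars are means and whiskers SDs of 3 libraries. In the I010 panel all 9 gemin2 libraries lie above 3% and all 9 WT libraries below 1%, while the genotypes overlap in the I005 panel.

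Cold did not move I010 past the threshold within a genotype. In gemin2 the mean share was 3.95 ± 0.93% (SD, n = 3) at 22 °C, 4.24 ± 0.84% after 1 h and 5.75 ± 2.67% after 24 h. In WT it was 0.0513 ± 0.0888%, 0.265 ± 0.185% and 0.320 ± 0.206% in the same order. The changes against 22 °C had adjusted p-values of 0.95 after 1 h and 0.366 after 24 h in gemin2, and of 0.299 and 0.314 in WT. The genotype by cold interactions of I010 were not called either, at 1 h (adjusted p = 0.558) or 24 h of cold (0.608). WT at 22 °C had only 1 read in 3 libraries, so the depth of these libraries limits both.

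The other 10 introns of XCT carried nearly the same number of reads in the genotypes. Summed over 9 libraries each, they held 477 reads in gemin2 and 467 in WT, whereas I010 alone held 439 and 24. The XCT gene counts summed to 9595 in gemin2 and 10294 in WT. Set per base against the exons, I010 had 61.2% of the read density of the gene in gemin2 and 3.12% in WT. I005 had 34.7% and 35.0%, and I006 19.4% and 14.6%, so XCT transcripts with reads in an intron were not limited to the mutant. The 8 introns with too few reads to test held 5 to 79 reads each over all 18 libraries and had at most 5.77% of the gene's density in either genotype. These sums weight libraries by depth and were not tested.

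**Figure D2:**
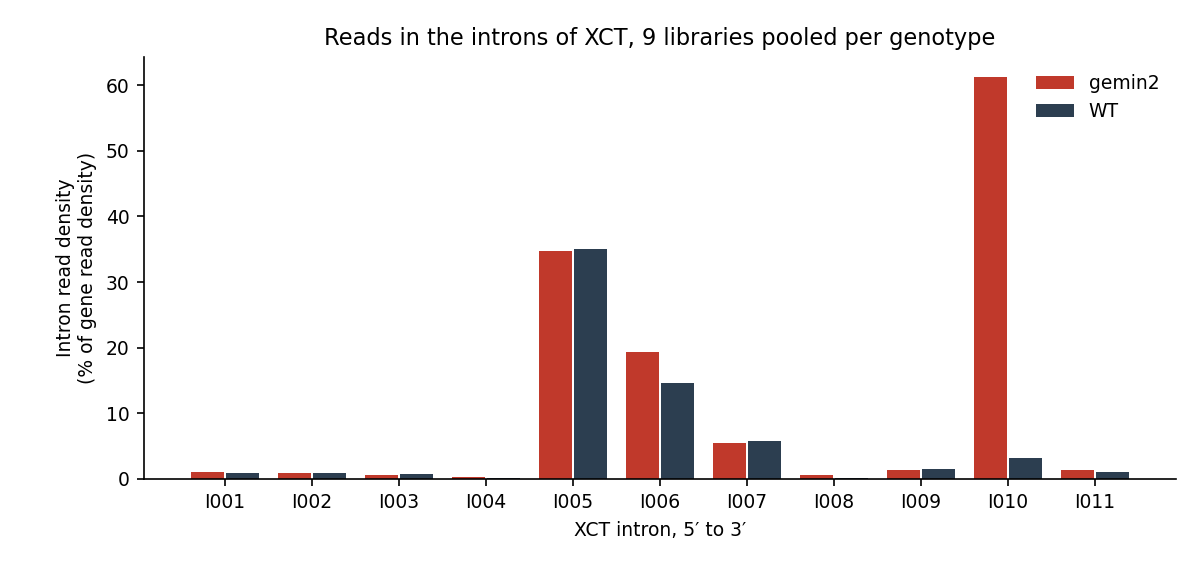
Read density in each of the 11 XCT introns, 5′ to 3′, as percent of the read density over the exons of the gene, pooled over 9 gemin2 (red) and 9 WT (dark blue) libraries. I010 stands at 61.2% in gemin2 and 3.12% in WT, and I005 at 34.7% and 35.0%.

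Intron I006 rose with 24 h of cold in gemin2. Its share of the gene count was 2.28%, 2.52% and 2.00% in gemin2 after 24 h, against 0.114%, 0.681% and 0.499% in gemin2 at 22 °C. The libraries did not overlap, and the change was 2.33 ± 0.53 (SE, adjusted p = 0.00247), where 13.2% of all introns tested were called. It rests on small counts, 20, 25 and 20 reads after 24 h against 1, 7 and 4 reads at 22 °C. Without library C of gemin2 at 22 °C the change was 2.42 ± 0.62, and without library A of gemin2 after 24 h it was 2.33 ± 0.58. In WT the shares were 0.992%, 1.21% and 1.82% after 24 h, against 1.55%, 0.174% and 0.923% at 22 °C. These WT libraries overlapped, and the change of 0.51 ± 0.50 was not called (adjusted p = 0.661), where 4.00% of introns were. The difference between the genotypes in this response was not called (1.82 ± 0.75, adjusted p = 0.292), where the background of interactions called was 0.673%. The authors' deposited table lists I006 in the same comparison, with a log2 change of 2.14 and an FDR of 0.000221. Between the genotypes I006 was not called in any condition, although its gemin2 libraries lay above the WT libraries after 1 h and after 24 h, with changes of 0.92 ± 0.48 (adjusted p = 0.219) and 0.75 ± 0.42 (adjusted p = 0.265).

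Intron I005 was not called in any of the 9 comparisons, and its smallest adjusted p was 0.178. In either direction 7.42% of introns were called after 1 h in gemin2, 6.02% after 1 h in WT and 0.0641% for the interaction at 1 h. Its shares of the gene count in WT were 2.53%, 3.49% and 2.57% after 1 h and 2.21%, 3.29% and 2.95% after 24 h, against 1.43%, 2.09% and 1.54% at 22 °C. Both cold groups lay above the 22 °C group, with changes of 0.79 ± 0.34 (adjusted p = 0.178) after 1 h and 0.78 ± 0.34 (adjusted p = 0.222) after 24 h. The authors' deposited table lists I005 in both of these comparisons, with log2 changes of 1.04 and 0.92 and FDRs of 0.0652 and 0.0767. Without the host gene's count in the model, both changes passed (adjusted p = 0.0324 and 0.0352), so the call depends on whether the intron is read against its gene.

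At the level of the gene, XCT was lower in gemin2 than in WT after 1 h of cold. XCT had 39.3, 29.2 and 28.0 CPM in gemin2 after 1 h, against 45.9, 49.1 and 47.3 CPM in WT after 1 h. The genotypes did not overlap, although library A of gemin2 read higher than B and C. The change was -0.56 ± 0.13 (SE, adjusted p = 0.00266), and it was -0.73 ± 0.13 without that library. XCT was the only 1 of the 3 genes called in this comparison, in which 34.0% of 21918 genes were called. At 22 °C XCT had 29.0, 30.7 and 28.9 CPM in gemin2, against 43.0, 36.0 and 31.5 CPM in WT. The libraries did not overlap here either, but the change of -0.32 ± 0.13 was not called (adjusted p = 0.0964). It hung on single libraries of WT, at -0.19 ± 0.14 (adjusted p = 0.394) without library A and -0.41 ± 0.14 (adjusted p = 0.0496) without library C at 22 °C. It was -0.30 ± 0.15 (adjusted p = 0.201) without library C of gemin2 at 22 °C, and -0.32 ± 0.11 (adjusted p = 0.048) without library A of gemin2 after 1 h. With the library letter as a block in the model it was -0.31 ± 0.11 and passed (adjusted p = 0.0383). Deviations of same-letter libraries of these 2 groups correlated at only 0.061 to 0.127. After 24 h XCT had 43.5, 33.7 and 32.1 CPM in gemin2, against 47.0, 40.0 and 44.6 CPM in WT. These overlapped through library A of gemin2, and the change was -0.27 ± 0.13 (adjusted p = 0.112). Without that library it was -0.41 ± 0.13 and passed the threshold (adjusted p = 0.0169), and without library C of gemin2 after 24 h it was -0.18 ± 0.14 (adjusted p = 0.356). Deviations of same-letter libraries of these 2 groups correlated at 0.251 to 0.411 over 3 pairs, with no different-letter pairs set beside them. With the letter as a block the change was -0.28 ± 0.10 (adjusted p = 0.0355).

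Of the cold responses of XCT, only that after 1 h in WT was called. Its level there lay above all libraries at 22 °C, with a change of 0.37 ± 0.13 that was close to the threshold (adjusted p = 0.0478). The call was lost with DESeq2 (adjusted p = 0.0665), with RLE size factors (0.066), without robust shrinkage of the spread (0.0545) and when any of libraries B and C of WT at 22 °C or A, B and C of WT after 1 h was left out (0.0831 to 0.21), or library C of WT after 24 h or any of the 3 of gemin2 at 22 °C (0.0559 to 0.0573). In WT after 24 h the change was 0.25 ± 0.13 (adjusted p = 0.118), with 0.38 ± 0.14 without library A of WT at 22 °C (adjusted p = 0.0297) and 0.16 ± 0.14 without library C (adjusted p = 0.36). Same-letter deviations of these WT groups correlated at 0.142 to 0.326 over 3 pairs, again with no different-letter pairs set beside them. With the letter as a block the change was 0.26 ± 0.11 (adjusted p = 0.0403). In gemin2 the changes were 0.12 ± 0.13 after 1 h (adjusted p = 0.685) and 0.30 ± 0.13 after 24 h (adjusted p = 0.0572). The change after 1 h was -0.05 ± 0.12 without library A of gemin2 after 1 h and 0.11 ± 0.15 without library C of gemin2 at 22 °C. The change after 24 h was 0.16 ± 0.13 (adjusted p = 0.327) without library A of gemin2 after 24 h and 0.28 ± 0.15 (adjusted p = 0.124) without library C of gemin2 at 22 °C. It passed without library B (0.0449) or C (0.0251) of gemin2 after 24 h, library A or C of WT at 22 °C, or any of the 3 of gemin2 after 1 h (0.0259 to 0.05). With the letter as a block it was 0.29 and passed as well (adjusted p = 0.0217), where the same-letter r between these gemin2 groups was -0.030 to 0.263. The order of the group means, from the lowest, was gemin2 at 22 °C, gemin2 after 1 h, gemin2 after 24 h, WT at 22 °C, WT after 24 h and WT after 1 h. Each neighbouring pair in that order overlapped in its libraries.

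**Figure D3:**
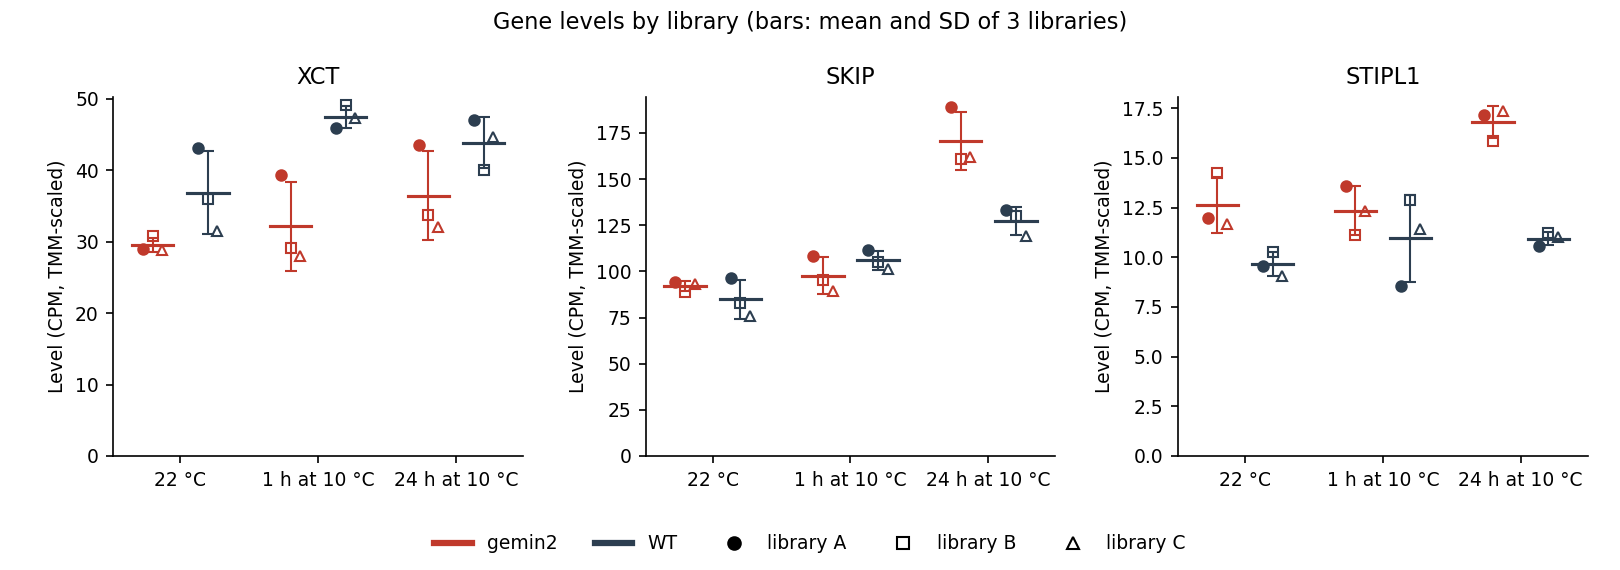
Levels of XCT, SKIP and STIPL1 in CPM in each library, by condition, with gemin2 in red and WT in dark blue; horizontal bars are means and whiskers SDs of 3 libraries. XCT lies lower in gemin2 than in WT after 1 h, and SKIP and STIPL1 lie higher in gemin2 than in WT after 24 h at 10 °C with no overlap.

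SKIP rose with 24 h of cold in both genotypes and stood higher in gemin2 than in WT after 24 h. It had 189, 161 and 162 CPM in gemin2 after 24 h, against 133, 130 and 119 CPM in WT after 24 h. No library overlapped, and the change was 0.42 ± 0.10 (SE, adjusted p = 0.00149), or 0.34 ± 0.10 without library A of gemin2. SKIP and STIPL1 were the 2 of 3 genes called in this comparison, both higher, in which 39.8% of all genes were called. At 22 °C SKIP had 94.3, 89.1 and 93.1 CPM in gemin2, against 96.3, 82.7 and 75.6 CPM in WT. After 1 h it had 108.5, 95.6 and 89.1 CPM in gemin2, against 112, 105 and 101 CPM in WT. In both conditions the genotypes overlapped, and the changes of 0.12 ± 0.10 and -0.12 ± 0.10 were not called (adjusted p = 0.416 and 0.369).

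The rise of SKIP over 24 h of cold was among the comparisons in which most genes moved. In gemin2 the change against 22 °C was 0.89 ± 0.10 (adjusted p = 7.25e-08), where 59.8% of genes were called, SKIP and STIPL1 among them. It was 0.90 ± 0.11 without library C of gemin2 at 22 °C and 0.81 ± 0.10 without library A of gemin2 after 24 h. The authors' deposited table gives SKIP a log2 change of 0.87 in that comparison, with an FDR of 6.88e-09. In WT the change was 0.59 ± 0.10 (adjusted p = 2.57e-05), where 55.3% of genes were called and SKIP was the only 1 of the 3. After 1 h SKIP had risen in WT (0.32 ± 0.10, adjusted p = 0.0196), where XCT and SKIP were 2 of the 3 genes called beside 25.1% of all genes. This call was lost without library B or C of WT at 22 °C or library A of WT after 1 h (adjusted p = 0.0668, 0.113 and 0.0825). In gemin2 after 1 h the change was 0.08 ± 0.10 (adjusted p = 0.708), and none of the 3 genes was called beside 9.13% of all genes.

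Whether the cold response of SKIP differed between the genotypes was tested directly. The genotype by cold interaction was -0.24 ± 0.14 after 1 h (adjusted p = 0.489), and after 24 h of cold it was 0.30 ± 0.14 (adjusted p = 0.154). At 24 h it was 0.31 ± 0.15 without library C of gemin2 at 22 °C and 0.22 ± 0.14 without library A of gemin2 after 24 h. In the main fit neither was called, and neither were the interactions of XCT and STIPL1, beside a background of 0.0958% of genes at 1 h and 13.9% at 24 h. With the letter as a block the SKIP interaction at 24 h was 0.29 ± 0.10 and passed (adjusted p = 0.0481). The letter was not shown to pair these groups. Same-letter r of gemin2 at 22 °C were 0.061 to 0.127 with WT at 22 °C and -0.030 to 0.263 with gemin2 after 24 h. The other 5 alternatives did not call this interaction, nor did the fits without each of the 18 libraries. The background at 1 h hangs on the processing, with 21 genes called in the main fit, 247 with the block and 184 with DESeq2. The groups of SKIP in order of their means were WT at 22 °C, gemin2 at 22 °C, gemin2 after 1 h, WT after 1 h, WT after 24 h and gemin2 after 24 h. Only the last 2 groups were clear of their lower neighbour.

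**Figure D4:**
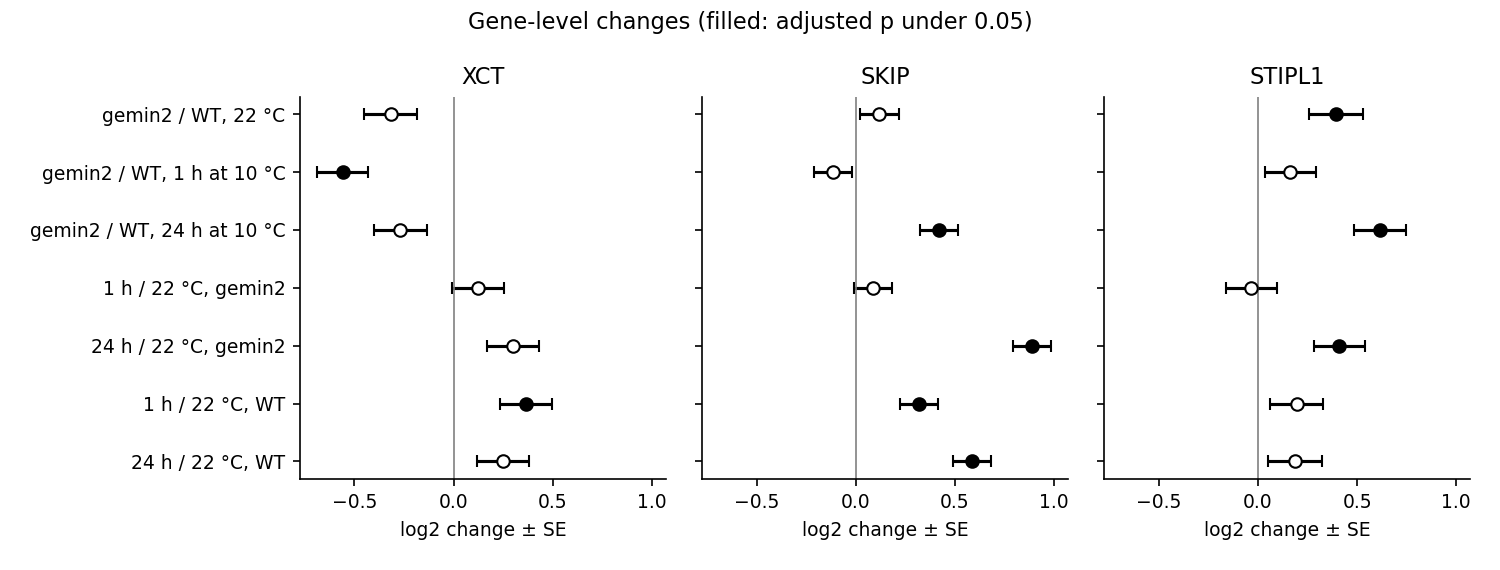
Log2 changes of XCT, SKIP and STIPL1 with standard errors in 7 comparisons, gemin2 over WT in each condition and cold over 22 °C in each genotype; filled points have an adjusted p under 0.05. SKIP after 24 h in gemin2 is farthest to the right at 0.89, and XCT after 1 h is the only filled point left of 0, at -0.56.

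SKIP lies on the minus strand of chromosome 1 (28999608 to 29002135, TAIR10) and carries 2 splicing bins. Bin E002 (28999970 to 29000275) is classed as a retained intron. It is 306 bases long, a multiple of 3, with GT and AG ends, lies within the coding sequence and is spliced out in 1 of 3 RefSeq transcripts. Its reads came to 15.0% to 16.7% of the SKIP gene count in gemin2 at 22 °C, against 12.7% to 15.5% in WT. After 24 h the range was 15.0% to 16.7% in gemin2, against 13.6% to 15.2% in WT. Per base, E002 had 109% to 126% of the density of the whole gene in the 6 group means, so its reads were at least as dense as those of the rest of the transcript. The genotypes overlapped in every condition, and none of the 9 comparisons was called, with a smallest adjusted p of 0.296. Among all 3809 bins tested, 2.76%, 8.37% and 6.06% were called between the genotypes at 22 °C, 1 h and 24 h. The shares called for cold were 0.578% and 4.31% in gemin2 and 5.30% and 3.41% in WT, after 1 h and 24 h, and those for the interactions 0% (0 bins, with edgeR) and 0.0788%. These counts hang on single libraries: 202 bins were called in WT after 1 h, but 31 without library B of WT after 1 h. Between the genotypes after 1 h 319 were called, but 122 without library B and 572 without library A of gemin2 after 1 h.

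Bin E004 of SKIP (29001665 to 29001840) is the stretch added by an alternative 3′ splice site of the intron before the coding sequence, in the 5′ untranslated region, and is exonic in 1 of 3 RefSeq transcripts. Its reads came to 1.30%, 1.24% and 1.05% of the gene count in gemin2 at 22 °C, against 0.479%, 0.757% and 0.577% in WT at 22 °C. The genotypes did not overlap, but the change of 1.01 ± 0.35 was not called (adjusted p = 0.131), and was 1.10 ± 0.38 without library C of gemin2. In WT after 1 h the shares were 1.33%, 0.803% and 1.65%, again above all WT libraries at 22 °C. That change of 1.08 ± 0.35 was not called (adjusted p = 0.0643), but was without library A of gemin2 after 24 h (1.08 ± 0.33, adjusted p = 0.0477). The authors' deposited table lists E004 in both comparisons, with log2 changes of 1.14 and 1.42 and FDRs of 0.0455 and 0.0106. In gemin2 the mean share was 1.20 ± 0.13% (SD, n = 3) at 22 °C, 1.21 ± 0.16% after 1 h and 1.22 ± 0.40% after 24 h, and in WT after 24 h it was 0.873 ± 0.062%. The WT bin had only 9, 10 and 9 reads at 22 °C, which limits the precision of every comparison with that group. The remaining intron of SKIP, I003, held 28 reads in gemin2 and 19 in WT and was not tested.

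**Figure D5:**
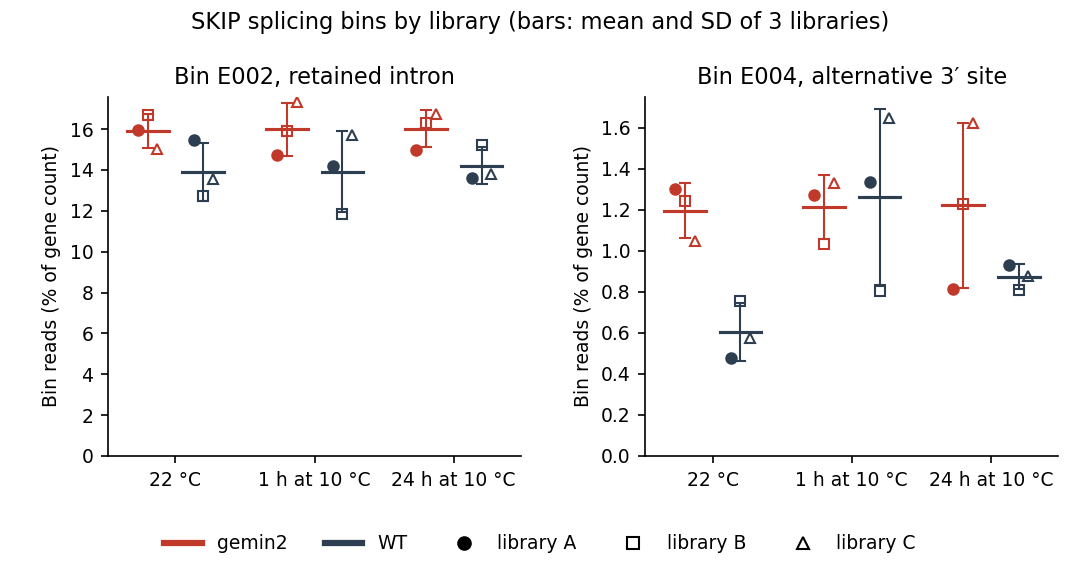
Reads in the SKIP bins E002 and E004 as percent of the gene count in each library, by condition, with gemin2 in red and WT in dark blue; horizontal bars are means and whiskers SDs of 3 libraries. E002 stays between 11.8% and 17.3% in all libraries, and E004 is lowest in WT at 22 °C, at 0.479% to 0.757%.

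STIPL1 (chromosome 1, 5837590 to 5840332, plus strand, TAIR10) is a gene of a single exon, so it has no intron or bin in the deposited tables. It was higher in gemin2 than in WT at 22 °C and after 24 h of cold. STIPL1 had 17.2, 15.9 and 17.4 CPM in gemin2 after 24 h, against 10.6, 11.2 and 11.03 CPM in WT after 24 h. The genotypes did not overlap, and the change was 0.62 ± 0.13 (SE, adjusted p = 0.000757), or 0.60 ± 0.14 without library A of gemin2. At 22 °C it had 12.0, 14.2 and 11.7 CPM in gemin2, against 9.58, 10.3 and 9.07 CPM in WT. These did not overlap either, and the change of 0.39 ± 0.13 passed the threshold (adjusted p = 0.0423), the only call among the 3 genes at 22 °C, where 20.7% of all genes were called. It remained called without library C of gemin2 (0.45 ± 0.15, adjusted p = 0.0491). The call was lost when library A, B or C of WT at 22 °C was left out (adjusted p = 0.0955, 0.0535 and 0.112), library A or B of gemin2 at 22 °C (0.0593 and 0.189) or library C of WT after 24 h (0.0515), with changes between 0.30 and 0.44. After 1 h STIPL1 had 13.6, 11.1 and 12.3 CPM in gemin2, against 8.56, 12.9 and 11.4 CPM in WT, which overlapped and was not called (0.16 ± 0.13, adjusted p = 0.343).

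Within gemin2, STIPL1 was higher after 24 h of cold than at 22 °C, with no overlap between the libraries (0.41 ± 0.13, adjusted p = 0.00917). The change was 0.36 ± 0.15 without library C of gemin2 at 22 °C (adjusted p = 0.0451) and 0.40 ± 0.14 without library A of gemin2 after 24 h (adjusted p = 0.0237). In WT the change over 24 h was 0.19 ± 0.14 (adjusted p = 0.253), and the interaction was 0.22 ± 0.19 (adjusted p = 0.487). The changes over 1 h were -0.03 ± 0.13 in gemin2 and 0.20 ± 0.14 in WT, neither called (adjusted p = 0.929 and 0.305). The groups of STIPL1 in order of their means were WT at 22 °C, WT after 24 h, WT after 1 h, gemin2 after 1 h, gemin2 at 22 °C and gemin2 after 24 h. The last lay clear of all others, and the first clear of the second, while the neighbours in between overlapped. The values of STIPL1 are uncertain, since AT1G17080 overlaps the gene in the deposited table and AT1G05287 on the other strand in RefSeq, and the library kit does not mark strand.

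STIPL2 (AT2G42330), the paralogue of STIPL1, was also higher in gemin2 after 24 h of cold. It had 17.0, 17.4 and 17.5 CPM in gemin2 after 24 h, against 6.79, 8.10 and 8.71 CPM in WT after 24 h, a change of 1.13 ± 0.11 (SE, adjusted p = 1.08e-07). In WT it had fallen by 1.12 ± 0.11 on the log2 scale over 24 h of cold (adjusted p = 2.81e-08), while in gemin2 the change was -0.08 ± 0.11 (adjusted p = 0.547). Its genotype by cold interaction at 24 h was called (1.04 ± 0.15, adjusted p = 0.000104). Whether the paralogues differed in this was not tested. How the counting treated reads that could come from either paralogue is not given in the sources used here.

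Levels of different genes were compared per length, as CPM per kilobase of exon. On that scale the group means of SKIP ran from 35.3 to 71.0, those of XCT from 23.7 to 38.1 and those of STIPL1 from 3.51 to 6.12. In each of the 6 groups SKIP had the highest mean per length of the 3 and STIPL1 the lowest. The highest group mean was 1.61 times the lowest for XCT, 2.01 times for SKIP and 1.74 times for STIPL1, against a median of 2.11 times over 21918 genes. In mean CPM, XCT, SKIP and STIPL1 lay above 79.1%, 93.7% and 52.4% of these genes. The median was not matched for level, so it does not show whether the 3 were steadier than genes of like level. Across the 18 libraries, log2 levels of SKIP and STIPL1 had a Pearson r of 0.64, XCT and SKIP of 0.35, and XCT and STIPL1 of -0.18. The libraries share 6 groups and these values describe them only.

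By the same correlation over 18 libraries, the 5 genes most like each of the 3 were picked among 14792 genes with a mean of at least 5 CPM. They are the highest of so many values, so that they exceed the correlations among the 3 genes is no result. The 5 most like XCT, with r of 0.953 to 0.963, were AT4G12230, MAG1, HUA1, AT5G52840 and AT3G43690. MAG1 encodes a retromer subunit and HUA1 an RNA-binding zinc finger protein of floral development. Most like SKIP were ATTIL, a temperature-induced lipocalin, AT1G05910, ERD7, a gene of early response to dehydration, AT1G55820 and AT3G13670, with r of 0.969 to 0.975. For STIPL1 they were AT5G10370, AT5G13970, EMB2773, AT5G18190 and AT5G18130, with r of 0.881 to 0.898.

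Further splicing factors, picked for their role beside SKIP or STIPL1 or for a link to the clock, were read from 3 lists. Of 16 genes of the PRP19 complex and of spliceosome activation, the assembly in which SKIP acts, 8 were higher and none lower in gemin2 at 22 °C. CDC5 (0.41 ± 0.07) and PRL2 (1.39 ± 0.26), subunits of the complex, the AQR homologue (0.41 ± 0.09), an intron-binding helicase, and PRP8A (0.31 ± 0.08), the core protein of the U5 particle, had the smallest adjusted p. After 1 h 9 were higher and 1 lower, led by MAC3B (0.60 ± 0.10), a ubiquitin ligase, and after 24 h 10 were higher and none lower, led by MOS4 (0.88 ± 0.08), CDC5 (0.61 ± 0.07) and PRL2 (1.92 ± 0.23). Over all genes 10.5%, 16.6% and 21.5% were called higher in these comparisons. The list's median log2 changes were 0.29, 0.31 and 0.57, against medians of -0.00022, 0.0044 and 0.019 over all genes. SKIP itself had log2 changes of 0.12, -0.12 and 0.42 in the same comparisons, below the median of the list each time.

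The next list held 7 genes of the later steps of splicing, of spliceosome disassembly, where STIPL1 acts, and of lariat turnover. In gemin2 at 22 °C 1 of them was higher and 2 were lower. The homologue of PRP22, a helicase that frees the spliced mRNA, was the higher one (0.31 ± 0.08), and the PRP43 homologues AT3G62310 and AT2G47250, genes for the helicase that STIPL1's yeast homologue activates, were lower (-0.44 ± 0.11 and -0.38 ± 0.10). After 1 h only STIPL2 was called (0.39 ± 0.11). After 24 h 5 were higher and none lower, led by STIPL2, the PRP22 homologue (0.75 ± 0.08), PRP16/CUV (0.46 ± 0.08) and DBR1 (0.53 ± 0.15), the lariat debranching enzyme. AT3G62310, lower at 22 °C, was also among the 5 higher after 24 h (0.28 ± 0.10), while AT2G47250 was not called then (-0.10 ± 0.10). Over all genes 21.5% were called higher after 24 h. The medians of this list were -0.11, 0.033 and 0.46 in the 3 conditions. In either direction 20.7%, 34.0% and 39.8% of all genes were called in them.

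Of 7 other splicing and snRNP factors known to act on the clock, 5 were lower and none higher in gemin2 than in WT after 24 h of cold, GEMIN2 among them (-1.99 ± 0.12), with GRP8 (-0.54 ± 0.10), GRP7 (-0.60 ± 0.12) and PRMT5 (-0.35 ± 0.13), where 18.2% of all genes were called lower. GRP7 and GRP8 encode clock-regulated RNA-binding proteins and PRMT5 a methyltransferase of Sm proteins. At 22 °C GEMIN2 was lower (-1.81 ± 0.12) and GRP7 higher (0.71 ± 0.13), and after 1 h GEMIN2 (-1.90 ± 0.12) and SICKLE (-0.39 ± 0.14) were lower and GRP7 higher (0.62 ± 0.13), where 20.7% and 34.0% of all genes were called in either direction. After 1 h XCT was called in the same direction as GEMIN2 and SICKLE and in the opposite direction to GRP7. SKIP and STIPL1 were called after 24 h in the opposite direction to all 5 called genes of this list, GEMIN2 included. GEMIN2 is the mutated gene, so its fall is no independent result of the list. The medians of the list were 0.12, 0.030 and -0.40 in the 3 conditions.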

How the data were processed

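The 18 libraries were made from poly(A) RNA of whole plants, per the labels' protocols. The deposited tables give read counts of each library for genes, introns and alternative splicing bins. Per the submitters' processing notes, the authors used TopHat2 2.0.9, R 3.0.2, edgeR 3.4.2 and the TAIR10 genome build. For the counting program and whether it read strand, nothing is given in the sources used here. Further deposited tables hold log2 fold changes and p-values, as FDRs, of the authors' own comparisons, which were only set beside the results here.

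Each count column names its group and a library letter (A to C), which no source ties to the labels' replicate numbers. Gene counts were scaled with TMM and filtered with filterByExpr. Counts of introns and bins entered with the count of their gene as an offset, if they averaged 10 counts or more and their gene averaged 50 or more with no library under 10. Percents of the gene count are ratios of these 2 counts. Tests were edgeR's quasi-likelihood tests with robust shrinkage over 6 groups, run in R 4.3.3 with limma 3.58.1 and edgeR 4.0.16, with adjusted p-values over each whole table and a threshold of 0.05. The SE is the size of the log2 change divided by the root of its F. Likeness was the Pearson r of log2(CPM + 0.5). Scripts were tested on simulated data.

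As alternatives, introns and bins were kept from a mean of 3 counts or fitted with no host gene offset, and genes were left unfiltered or scaled with RLE factors. Genes, introns and bins were all run with DESeq2 1.42.0, on only the compared groups, with a replicate block and without each library in turn. Robust shrinkage, and a fit without it, were chosen after the data were seen. The members, the lists and the naming rule were chosen with earlier results of these data known. The rule names the 3 genes, all their tested introns and bins, the 5 genes most like each, and up to 4 called genes of each list per comparison by smallest adjusted p. Intron and bin coordinates are those of the deposited tables, and the sequences were read from TAIR10.1, whose exon bounds match all 11 XCT introns. Totals of 15675913 to 53766089 counts per library set the counting precision of each value.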

Additional observations from a re-analysis of the deposited data

How the results depend on the processing

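Over 39 results and 936 alternative values, 885 kept their direction and their side of the threshold, 21 lost a call, 24 gained one and 6 changed sign, all 6 of uncalled results. The calls of XCT I010 in the 3 conditions, XCT after 1 h and SKIP and STIPL1 after 24 h between genotypes, SKIP after 24 h of cold in both genotypes, and STIPL1 and I006 after 24 h of cold in gemin2 held under every alternative run. I010 entered each of these runs through its gemin2 reads (439, against 24 in WT), so the runs leave that limit in place. XCT at 22 °C passed with only the compared groups (-0.31). XCT after 1 h in WT was lost with DESeq2 (0.34), RLE factors (0.34) and without robust shrinkage (0.37), and XCT after 24 h in gemin2 passed with no filter (0.30). The causes were not tested.

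Library letters were not shown to pair the libraries in every comparison: same-letter deviations correlated at -0.247 to 0.748 over 45 pairs, 31 of them over 0.1. Libraries of different letters were not compared in this way, so these r have no baseline. The highest values were in letter A, among them 0.471 and 0.524 between WT at 22 °C and gemin2 after 1 h and 24 h. The main tests leave such shared deviations out, and what the letters stand for is not given. Among the groups compared, all 3 pairs passed 0.1 for gemin2 against WT after 24 h and for WT after 24 h against 22 °C. They did not for the genotypes at 22 °C, for any comparison at 1 h or for cold against 22 °C in gemin2. Between gemin2 after 1 h and after 24 h, which were not compared, the r were 0.748, 0.420 and 0.372 for letters A, B and C. With the letter as a replicate block, XCT passed between the genotypes at 22 °C (-0.31) and after 24 h (-0.28), and after 24 h of cold in gemin2 (0.29) and WT (0.26), as did the SKIP interaction at 24 h (0.29, adjusted p = 0.0481). The block changed no other call of the 39 results. It moved the counts of bins called between the genotypes to 172, 541 and 351 at 22 °C, 1 h and 24 h, in place of 105, 319 and 231, and that of genes called for the interaction at 1 h to 247, in place of 21. That count was 184 with DESeq2, 38 with no filter, 52 with only the compared groups and 7 to 119 without one library.

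With each library left out in turn, log2 changes between genotypes ran from 0.30 to 0.45 for STIPL1 at 22 °C, from -0.41 to -0.19 for XCT at 22 °C and from -0.41 to -0.18 for XCT after 24 h. In WT after 1 h they ran from 0.24 to 0.42 for SKIP and from 0.26 to 0.49 for XCT, and after 24 h from 0.16 to 0.38 for XCT. In gemin2 after 1 h they ran from -0.11 to 0.062 for STIPL1 and from -0.048 to 0.21 for XCT, and after 24 h from 0.16 to 0.39 for XCT. The XCT interaction at 24 h ran from -0.095 to 0.14. Depth limits the introns, of which 9 of 12 had too few reads to test.

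Without the host gene's count 817 introns and 378 bins were called between genotypes at 22 °C, in place of 472 and 105, and E004 of SKIP passed at 22 °C between genotypes (1.13) and in WT after 1 h (1.40) and 24 h (1.13). With a mean of 3 counts, 2991 introns were called between genotypes after 24 h, in place of 1588. Only the compared groups gave 177 introns in WT after 24 h, in place of 375. Without library A or B of WT after 1 h, 3595 or 3606 genes were called in WT after 1 h, in place of 5499.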
